A study of Mus musculus with 12 samples.

Results

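The regions described here are 541 stretches of RNA bound by AGO2 in the 3' UTRs of mRNAs from developing mouse cerebellum that were listed at P7 and not at P15. They were chosen by list membership and annotation. Each is a peak of the P7 target list that no peak of the P15 target list overlapped by 1 nt or more on the same strand, and each overlaps a 3' UTR of a protein-coding transcript of GENCODE M21. They made up 53.8% of the 1005 P7 peaks in 3' UTRs (exact 95% interval 50.7 to 56.9), 15.5% of the 3492 peaks listed only at P7, and 541 of all 4884 P7 peaks. Absence from the P15 list is therefore how they were selected and is not a result. A peak without a partner in the other list is also not shown to be unbound at that age. Peaks that also overlapped a coding exon, of the same or another transcript, were kept, and 84 of the 541 (15.5%) did. Peaks that span a stop codon are among them.

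All animals were homozygous for a conditional Spy3-tagged Ago2 allele, with the genotype field of the labels reading WT. Pups received, at P0, an intracerebroventricular AAV carrying Cre under the L7 promoter, which is active in Purkinje cells, so the tag is expected in the Purkinje cells that were infected. Whole cerebella were taken at P7 or P15, and tagged AGO2 was captured on a SpyCatcher3 resin, followed by a gel cut. Both ages share the allele and the virus and differ in age. The labels name 1 list for both target libraries of an age, and how the libraries were combined is not given in the sources used here. No label ties a library to its animals. The lists carry no score, so no peak has a height or an error here. Peaks are not replicates. The tests below compare lists of peaks, and peaks of 1 gene share a transcript.

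AGO2 is the protein that holds a miRNA and uses its seed, the bases near the 5' end, to find complementary sites, most often in 3' UTRs. Pairing usually leads to less translation and faster decay of the mRNA. The same 3' UTRs are read by other proteins. Proteins of the Pumilio family bind a short UGUA-containing element and recruit deadenylases, and Pumilio and AGO sites can lie close together. Between these ages Purkinje cells, the output neurons of the cerebellar cortex, extend their dendrites while granule cells still divide and migrate.

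Of the motifs searched, the one called more often in the peaks than in both of their flanks was the Pumilio element TGTANATA, where N is any base, and that call was lost under 3 of 5 alternatives. It is shown first, from the 10 peaks with an element nearest to the peak centre, because the tests below turn on it. Each line gives 30 nt of GENCODE M21 transcript sequence, 5′ to 3′, with the element in capitals.
Kmt5b: gatgtatatgtTGTAAATAtttgtgtgttg
Lrrc58: ttttggggtgaTGTAAATAaaagtagagct
Pnisr: tttttttattgTGTAAATAggtgtcttttt
Arl6ip1: acatgttttctTGTAAATAagcctgccttc
Zfp362: atgcgtgtccgTGTATATAggaactatgta
Prr12: cccctccaccaTGTACATAatgtataggaa
Nxf1: aaaagtcccctTGTAAATAgcccctggata
Ppp2r5e: tacagcagcacTGTATATAcctgtctctaa
Vcan: accgatggccaTGTAAATAagatgatttaa
Frrs1l: agggtccaggcTGTAAATAtttgaactttg
The peaks of these elements lie, in mm10, at chr19:3816550-3816612 (plus strand) for Kmt5b, a histone methyltransferase, chr16:37886439-37886470 (plus) for Lrrc58, chr4:21875049-21875087 (plus) for Pnisr and chr7:118119017-118119050 (minus) for Arl6ip1. Those of Zfp362 and Prr12 lie at chr4:128773453-128773509 (minus) and chr7:45028172-45028217 (minus). The peak of Nxf1, the mRNA export receptor, is at chr19:8770618-8770661 (plus), and that of Ppp2r5e, a regulatory subunit of protein phosphatase 2A, at chr12:75453562-75453591 (minus). The peak of Vcan, a matrix proteoglycan, is at chr13:89656864-89656914 (minus) and that of Frrs1l, an AMPA receptor partner, at chr4:56959218-56959252 (minus).

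The miRNAs whose matches were searched came from the P7 AGO2 libraries. The 7 mature sequences below, from RefSeq for GRCm38.p6, belong to the families with a match in a peak most abundant by the mean of both P7 libraries. Of those ranking among them, miR-133b-3p is not shown. The rank of miR-6240 rests largely on P7 replicate 2. Capitals mark the seed, bases 2 to 8.
miR-9-5p: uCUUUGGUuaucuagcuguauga
miR-125b-5p: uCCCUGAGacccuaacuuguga
miR-138-5p: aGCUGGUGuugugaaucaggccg
miR-29c-3p: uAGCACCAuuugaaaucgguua
miR-6240: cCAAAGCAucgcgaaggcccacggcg
let-7g-5p: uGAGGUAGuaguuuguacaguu
miR-342-3p: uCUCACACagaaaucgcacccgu
One matched site for each, with the 7 nt complementary to the seed in capitals, shows what a match looks like in these 3' UTRs.
Ralgds, miR-9-5p: tctcaggctgcACCAAAGattccaccttca
Kctd15, miR-125b-5p: tgggtccccagCTCAGGGaaccaccctcca
Nmnat2, miR-138-5p: cacacacagcaCACCAGCagcagcatcccc
Sptbn1, miR-29c-3p: gcgctcaggccTGGTGCTccatcatacgac
Stox2, miR-6240: cgtcagaatccTGCTTTGagtccagcccat
Map3k1, let-7g-5p: tccagtttctaCTACCTCaggtgtcctata
Cacnb3, miR-342-3p: agagcaagaggGTGTGAGtgtgggcaacat
The matches in Ralgds, Kctd15, Nmnat2, Stox2 and Map3k1 were 8-nt matches, with an A after the 7 paired bases. Their peaks lie in mm10 at chr2:28552703-28552808 (plus) for Ralgds, chr7:34639406-34639456 (minus) for Kctd15, chr1:153116232-153116282 (plus) for Nmnat2 and chr11:30099416-30099531 (minus) for Sptbn1. Those of Stox2, Map3k1 and Cacnb3 lie at chr8:47186424-47186517 (minus), chr13:111746709-111746786 (minus) and chr15:98643892-98643938 (plus). The Map3k1 peak holds both a let-7 match and a Pumilio element.

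The peaks were spread over 408 genes. Of these, 331 genes had 1 such peak and 77 had 2 or more. Nfasc, which codes for the adhesion molecule neurofascin of axon initial segments, had the most with 8. Soga1 and Adcy1, an adenylyl cyclase stimulated by calcium, had 7 each. Kif21b, a kinesin motor, had 6 and Sbk1, a protein kinase, 5. With 4 each followed Apc2, a microtubule-binding relative of APC, Cntn2, the contactin known as TAG-1, the MAP kinase kinase kinase Map3k1, the microtubule protein Nav1, Nlgn2, the neuroligin of inhibitory synapses, Ttyh3 and the 14-3-3 protein Ywhag. Counts of peaks per gene carry no error.

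The genes with most such peaks differed in what else they held. Kif21b had 10 peaks at P7, of which 6 were these 3' UTR peaks and 4 were coding exon peaks also listed only at P7, and it had 0 peaks at P15. Map3k1 was alike, with 4 and 3 of its 7 P7 peaks and 0 at P15. Barhl1, a homeodomain factor of granule cell precursors, had 3 and 2 of 5, and 0 at P15. Adcy1 lay at the other end: beside its 7 peaks, 21 of its P7 peaks in the 3' UTR were overlapped at P15, and 15 further P15 peaks lay there without a P7 partner. Nlgn2 had 4 P7-only, 2 overlapped and 8 P15-only peaks in its 3' UTR. A gene could thus hold P7-only and P15-only peaks side by side.

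**Figure D1:**
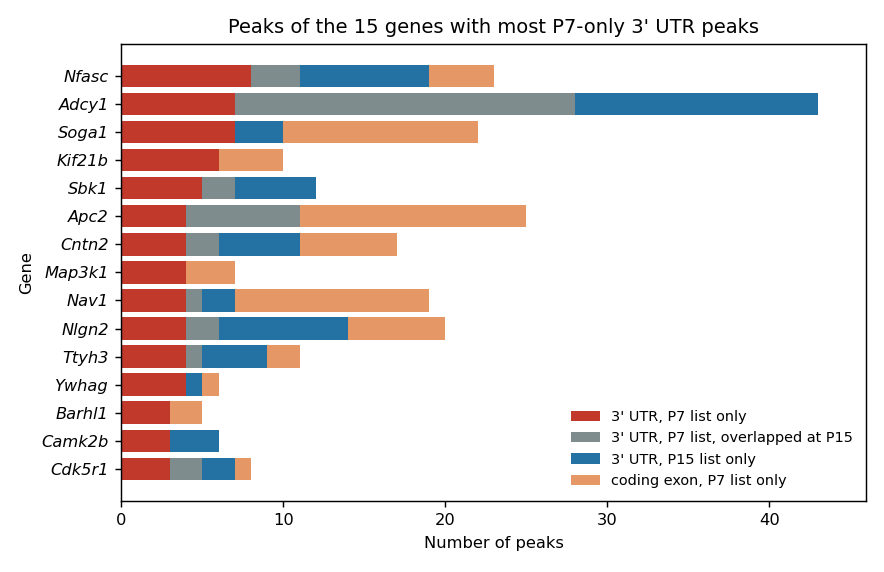
Number of peaks (x axis) in each of the 15 genes with most P7-only 3' UTR peaks (y axis), stacked by kind of peak. Kif21b, Map3k1 and Barhl1 show no peak overlapped at P15 and no P15-only 3' UTR peak, while Adcy1 has 21 of the first kind and 15 of the second.

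In Nfasc, on chromosome 1 (minus strand), the 8 peaks lay between 132565660 and 132570390, with midpoints 78 to 4739 nt past the stop codon of the transcript used. They were 41 to 93 nt wide with a GC content of 47.4% to 67.6%. Each lay 25 to 207 nt from the nearest P15 peak. In Kif21b, on chromosome 1 (plus strand), 3 of the 6 peaks lay together at 136175746-136175791, 136175816-136175894 and 136175936-136176008, and another at 136176589-136176682. The last pair, at 136177752-136177778 and 136177891-136177978, had midpoints 233 and 63 nt before the annotated end, with a GC content of 74.1% and 37.5%. The final one held a Pumilio element. In Soga1 (chromosome 2, minus strand) 5 of the 7 peaks crowded within 180 to 642 nt of the stop codon, where the nearest P15 peak was 366 to 858 nt away. The peaks of Sbk1 (chromosome 7, plus strand) were 79 to 220 nt wide and those of Ttyh3 (chromosome 5, minus strand) 180 to 235 nt, against a median of 50 nt over the 541.

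For 112 genes the only peaks in either list were of this kind. Lrrc58 had 3, across 1731 to 4995 nt of a 7399 nt 3' UTR, and the semaphorin Sema4g had 3 in a 3' UTR of 1403 nt. Cbx3, which codes for the heterochromatin protein HP1 gamma, Eif4ebp2, an inhibitor of cap-dependent translation, Hjurp, the chaperone of the centromeric histone, the scaffold Lin7c and the tropomyosin Tpm1 had 2 each. Both peaks of Cbx3 also overlapped a coding exon and count as 3' UTR by the priority of classes. The remaining 3 of the 10 genes taken by rule, 2700081O15Rik, Abhd16a and Abhd2, had 1 each. In contrast, 213 genes with 307 of the 541 peaks also had coding exon peaks listed only at P7, and 75 genes also had a 3' UTR peak overlapped at P15.

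Gene lists were read by how many of their genes with a 3' UTR peak at either age had a P7-only one. Over all 1568 genes with such a peak the share was 26.0%, and this is the value each list is read against, with no test. Of 21 granule cell and granule cell precursor markers 12 (57.1%) had one, with 19 peaks: Cntn2 had 4, Barhl1 3, the giant cadherin Fat2 2 and the factor Nfix 2. Of 20 Purkinje cell markers 5 (25%) had one, with 6 peaks: the scaffold Shank2 had 2, and the brain aldolase Aldoc, the carbonic anhydrase relative Car8, the homeodomain factor En2 and the calmodulin regulator Pcp4 had 1 each. Of 9 Bergmann glia and astrocyte markers 4 (44.4%) had one, among them the glutamate transporters Slc1a2 with 2 and Slc1a3 with 1. Of 5 oligodendrocyte lineage markers with a 3' UTR peak 3 (60.0%) had one. Neither of the 2 interneuron markers with a 3' UTR peak did, and none of 18 microglia, endothelial and mural markers had a 3' UTR peak at either age. The part of RNA from cells other than Purkinje cells in these peaks was not tested. In these pooled cerebella, fewer cells of a type and less RNA per cell cannot be told apart.

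Among functional lists, transcription factors had 12 of 26 genes (46.2%), led by Sox11 and Zbtb18 with 3 peaks each, both regulators of young neurons, and Nfic and Nfix with 2 each. Cell cycle genes had 4 of 8: the cyclin Ccnd2, the topoisomerase Top2a, Btg1 and Trp53, each with 1 peak. None of the 4 genes had a P15 peak, as was the case for 184 of all 408 genes with a P7-only 3' UTR peak. Cytoskeleton and dendrite genes had 16 of 41 (39.0%), with Kif21b and Apc2 followed by Dpysl5 and Map2 with 2 each. Presynaptic genes had 7 of 17 (41.2%), with 3 peaks in the complexin Cplx2 and 2 in the priming factor Unc13a. Chromatin regulators had 7 of 22 (31.8%), with 3 in the remodeller Chd3. RNA-binding proteins had 7 of 19 (36.8%), with 2 in Nova2. Axon guidance and adhesion genes had 7 of 20 (35.0%) and kinase and second messenger genes 7 of 23 (30.4%), the latter led by Adcy1. Below the overall share, beside the Purkinje cell markers, were ubiquitin and proteolysis genes with 3 of 15 (20%), postsynaptic scaffolds and adhesion genes with 4 of 20 (20%), secretory and lipid genes with 3 of 16 (18.8%) and Wnt, Hedgehog, Notch and TGF beta genes with 2 of 11 (18.2%). Among lists with at least 5 such genes, ion channels and receptors came lowest with 4 of 25 (16.0%), 1 peak each in Atp2b2, Cacna1e, Gria1 and Scn8a. Of the 2 miRNA pathway genes with a 3' UTR peak neither had a P7-only one. Lists share genes, and most rest on fewer than 20.

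**Figure D2:**
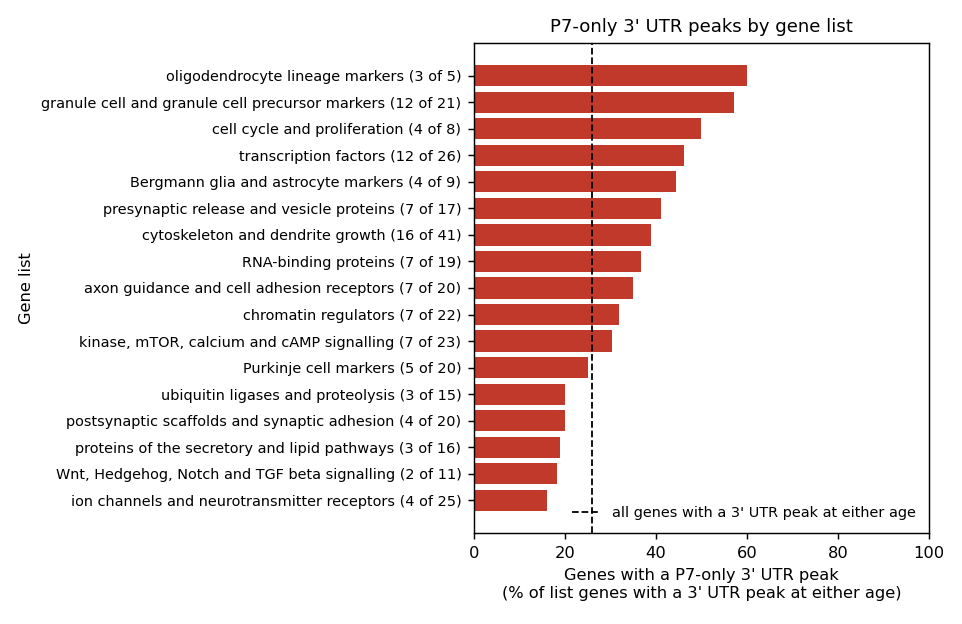
Share of the genes of each list with a 3' UTR peak at either age that had a P7-only 3' UTR peak (x axis, percent), for lists (y axis) with at least 5 such genes. The dashed line marks the 26.0% over all 1568 genes; granule cell markers reach 57.1% and ion channels and receptors 16.0%.

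Many of these peaks had P15 peaks for neighbours. In all, 280 of the 541 (51.8%) lay in 184 genes with a P15 peak in the 3' UTR, 46 (8.5%) in genes with P15 peaks in coding exons but not in the 3' UTR, 6 in genes with other P15 peaks, and 209 (38.6%, 184 genes) in genes with no P15 peak. For 267 the nearest P15 peak was in the same 3' UTR, with a median of 294 nt between them, and it lay downstream for 164 and upstream for 103. It was under 20 nt away for 14, 20 to 49 nt for 25, 50 to 99 nt for 29, at least 100 but under 500 nt for 105 and 500 nt or more for 94. All 4 Nlgn2 peaks lay close to P15 peaks, at 3, 9, 29 and 39 nt. At the threshold of the rule, the closest peaks kept were in Srcin1 (0 nt between), Stox2 (1 nt) and the tau gene Mapt (2 nt). The P7 peaks just left out were in Ank, overlapped by 1 nt, and in Nfic and Nptn, by 5 nt each, while the 464 overlapped peaks had a median overlap of 43 nt.

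A further P15 list, deposited with target replicate 2 and holding 1624 peaks, was not used by the rule. How it was made, and whether reads of that library also entered the main P15 list, is not given in the sources used here, so it is no independent check of absence at P15. It overlapped 13 of the 541 peaks (2.4%, exact 95% interval 1.29 to 4.07). Coding exon peaks listed only at P7, chosen by the same absence, were overlapped at 40 of 2551 (1.57%, 1.12 to 2.13), and the difference did not pass Fisher's exact test, two-sided (p = 0.199). For the 3' UTR peaks overlapped in the main P15 list the share was 151 of 464 (32.5%). Among the 13 were peaks of Adcy1, Sbk1, Zbtb18, Tpm1, the amyloid precursor relative Aplp1, Snurf, Dbi and Itm2b. In Aplp1, Ndrg3, Tpm1 and Treml2 the list covered the whole peak, of 49, 58, 41 and 25 nt.

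The peaks lay less often near the end of the 3' UTR than other 3' UTR peaks, and more often near the stop codon than P15-only peaks. Position and sequence could be read for 525 of the 541 on an annotated transcript, for 2082 of 2095 3' UTR peaks listed only at P15 and for 463 of the 464 overlapped P7 peaks. The median position was 37.8% of the way along the 3' UTR, against 54.0% for P15-only and 48.1% for overlapped peaks. The last 25% of the 3' UTR held 84 peaks (16.0%), against 34.4% of P15-only peaks (adjusted exact p = 6.02e-17) and 31.7% of overlapped peaks (adjusted exact p = 1.11e-08). Within 100 nt of the annotated transcript end lay 33 (6.29%), against 19.7% (adjusted exact p = 8.11e-15) and 13.2% (adjusted exact p = 0.000419). In genes with peaks of both sets the differences from overlapped peaks did not pass, for the last 25% (15.7% and 26.5%, adjusted exact p = 0.109) or for the transcript end (3.73% and 7.1%, adjusted exact p = 0.424), nor did that at the transcript end in peaks with a GC content under 50%, a comparison chosen after seeing the data (11.6% and 15.1%, adjusted exact p = 0.424). Within 100 nt of the stop codon lay 91 (17.3%), against 7.49% (adjusted exact p = 2.76e-10) and 11.7% (adjusted exact p = 0.0173). The call against overlapped peaks was lost under 4 of 5 alternatives: with coding exons given priority, with 1 peak per gene (adjusted exact p = 0.181), in genes with peaks of both sets (adjusted exact p = 0.571) and in peaks with a GC content under 50% (adjusted exact p = 0.316). The first 10% of the 3' UTR alone held 19.8%, against 11.2% of P15-only and 15.3% of overlapped peaks.

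All p-values of position and composition are from Fisher's exact test, two-sided, adjusted by Benjamini-Hochberg over 14 comparisons, of which 7 of 7 against P15-only peaks (100%) and 6 of 7 against overlapped peaks (85.7%) were called. The first 25% of the 3' UTR held 34.3%, against 26.6% of P15-only peaks (adjusted exact p = 0.000775) and 31.7% of overlapped peaks (adjusted exact p = 0.417). Peaks also touching a coding exon, of the same or another transcript, took part in the count near the stop codon. They were 13% here, 3.94% of P15-only and 4.75% of overlapped peaks. With coding exons given priority, 8.75% of the peaks lay within 100 nt of the stop codon against 4.8% of P15-only (adjusted exact p = 0.00252) and 7.94% of overlapped peaks (adjusted exact p = 0.838), and the first 25% no longer passed against P15-only peaks (adjusted exact p = 0.293). It did not pass either in genes with peaks of both sets (adjusted exact p = 0.782) or in peaks with a GC content under 50% (adjusted exact p = 0.0577).

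**Figure D3:**
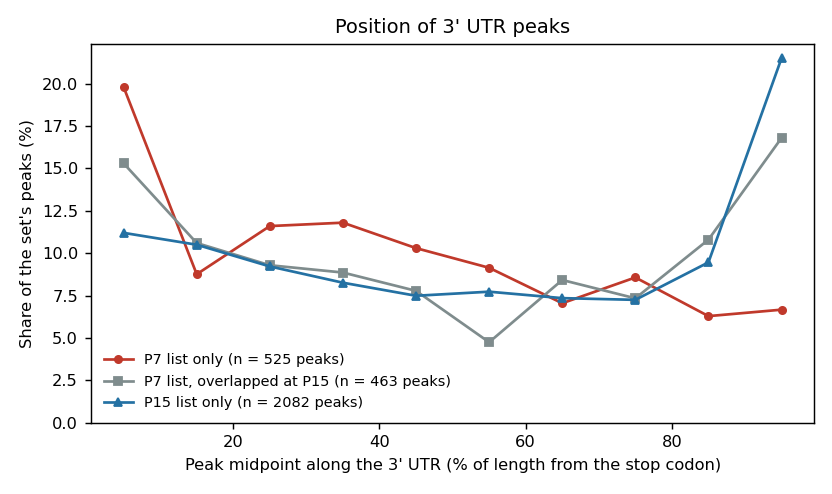
Share of each set's peaks (y axis, percent) by steps of 10% of the 3' UTR, from the stop codon to the annotated end (x axis, percent of length). P7-only peaks are most frequent in the first 10% (19.8%) and hold 6.67% in the last, where P15-only peaks hold 21.5%.

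Base composition set these peaks further apart. Their median GC content was 54.0% (quartiles 46.7% and 60.4%), against 40.6% for P15-only and 41.8% for overlapped 3' UTR peaks, and close to the 55.8% of coding exon peaks listed only at P7. A GC content of at least 50% was found in 353 of 525 (67.2%), against 33.9% (adjusted exact p = 2.70e-42) and 35.4% (adjusted exact p = 7.27e-23). The surroundings moved with it: the median GC content was 52.3% in the upstream and 50.6% in the downstream flank of equal length, and 50.7% over the whole 3' UTR. For P15-only peaks the flanks had 45.7% and 43.0% and the whole 3' UTR 47.0%, so by these medians P15-only peaks were lower in GC than their surroundings and P7-only peaks higher. The flank medians cover only peaks with both flanks, 495 P7-only and 1711 P15-only. Medians of peaks and whole 3' UTRs cover 525 and 2082, so the sets compared are not the same. In the genes that held both P7-only and P15-only 3' UTR peaks, 72.2% of 252 and 48.7% of 435 reached 50% GC (adjusted exact p = 2.26e-08). In genes holding both P7-only and overlapped peaks it was 72.4% of 134 and 58.1% of 155 (adjusted exact p = 0.0808), which did not pass. The peak of highest GC content, 85.7%, lay at the stop codon of Barhl1 at chr2:28909619-28909702 (minus), and one of 80.3% in Nfix.

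**Figure D4:**
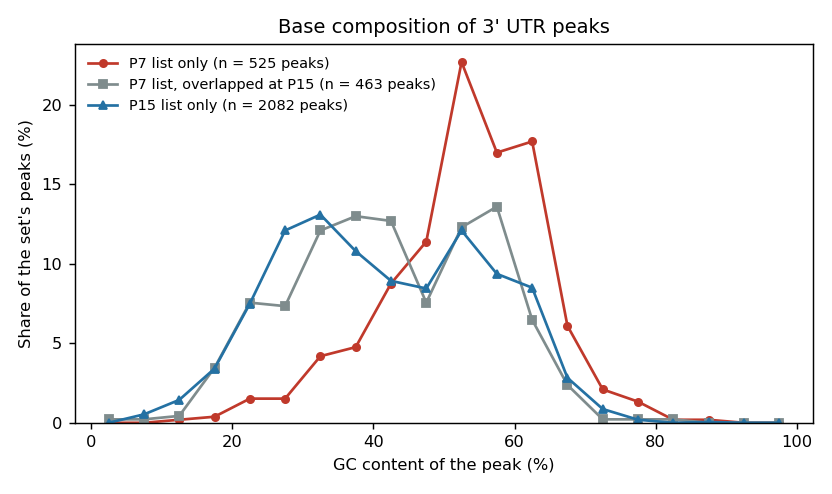
Share of each set's peaks (y axis, percent) by GC content of the peak in steps of 5 percentage points (x axis). The P7-only peaks centre near their median of 54.0%, while P15-only and overlapped peaks have medians of 40.6% and 41.8%.

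Width differed less. Of the 525 peaks 48.2% were wider than 50 nt, against 53.6% of P15-only (adjusted exact p = 0.0299) and 61.8% of overlapped peaks (adjusted exact p = 3.61e-05). The first call was lost with 1 peak per gene (adjusted exact p = 0.122) and in peaks with a GC content under 50% (adjusted exact p = 0.0811), and the second in genes with peaks of both sets (61.2% and 64.5%, adjusted exact p = 0.625). The narrowest of the 541 had 25 nt and the widest 329 nt.

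Of 14 motifs tested against the flanks of the same peaks, 1 (7.14%) was called, the Pumilio element. It lay in 23 of the 495 peaks with both flanks (4.65%), against 6 upstream (1.21%) and 3 downstream windows (0.606%), by the exact McNemar test, two-sided, with the larger p of both flanks and Benjamini-Hochberg adjustment (adjusted exact p = 0.0324). Across the alternatives the adjusted p ran from 0.00712 to 0.0829, and the call was lost with flanks set 50 nt away (0.0829), with 1 peak per gene (0.0571) and with peaks wider than 30 nt (0.0521). By the same count P15-only peaks held it in 23.4% of 1711, with 1.58% and 1.64% in their flanks, and overlapped peaks in 29.6% of 406, with 2.96% and 2.71%, so an excess over the flanks was not particular to the P7-only peaks. Over 50-nt windows tiled along the longest 3' UTR of each gene with a 3' UTR peak, 1.51% of 70069 held the element. Only the sense strand was searched for every motif, and a match is a description of letters.

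Yet the element was much rarer in these peaks than in the other 3' UTR peaks. It was in 24 of 525 (4.57%), against 494 of 2082 P15-only (23.7%, adjusted exact p = 5.34e-27, Fisher's exact test) and 142 of 463 overlapped peaks (30.7%, adjusted exact p = 4.04e-28). In peaks with a GC content under 50% the shares were 12.2% of 172, 32.2% of 1377 (adjusted exact p = 1.43e-07) and 40.5% of 299 (adjusted exact p = 7.41e-10). In genes with peaks of both sets they were 2.38% against 10.3% of P15-only (adjusted exact p = 0.000569) and 2.99% against 21.3% of overlapped peaks (adjusted exact p = 4.89e-05). The difference from both sets was therefore present within low-GC peaks and within shared genes. The cut at 50% did not match composition, however. Within it, 22 P7-only peaks had a GC content of 30% to 35% and 60 of 45% to 50%. For P15-only peaks these numbers were 272 and 176, and for overlapped peaks 56 and 35. A difference at matched GC content was not tested.

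The 25 elements of the 24 peaks lay in 24 genes, of which 4 also had a 3' UTR peak overlapped at P15. Over all 408 genes with a P7-only 3' UTR peak 75 had one, a similar share. Of the 25 elements, 21 had their midpoint within 20 nt of the peak centre. An element had to lie inside its peak, and the median width of the 541 peaks was 50 nt. A short distance thus follows largely from the search, and no conclusion on placement is drawn. The peaks holding the elements had a median GC content of 36.7% (20.5% to 62.0%), below the 54.0% of all the peaks. Irs1, the insulin receptor substrate, held 2 elements in a single peak at chr1:82233262-82233316 (minus). Further elements lay in the peaks of Sox11, of Top2a, of the RNA-binding protein Msi1, a marker of neural progenitors, of the cell surface protein Cd24a, of the cyclin-dependent kinase Cdk14 and of Nbea, a vesicle-trafficking protein.

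**Figure D5:**
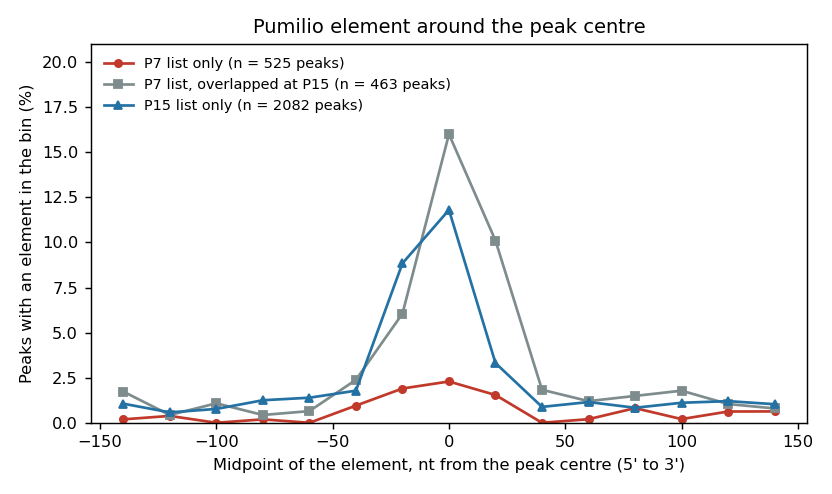
Share of peaks with a Pumilio element whose midpoint falls in each 20-nt bin (y axis, percent) by distance from the peak centre (x axis, nt). At the centre the share is 2.29% for P7-only, 16.0% for overlapped and 11.8% for P15-only peaks.

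Of the 14 motifs, 9 (64.3%) differed from P15-only peaks and 7 (50%) from overlapped peaks. Apart from runs of G and the sequence GGACT, preferred by the m6A methyltransferase, each of those called was rarer in the P7-only peaks. The polyadenylation hexamer AATAAA was in 8 of 525 (1.52%), against 13.8% (adjusted exact p = 1.94e-19) and 8.42% (adjusted exact p = 1.43e-06). The difference from overlapped peaks did not pass in genes with peaks of both sets (0.746% and 5.81%, adjusted exact p = 0.126). Its variant ATTAAA was in 0.762%, against 3.99% (adjusted exact p = 0.000222) and 3.02% (adjusted exact p = 0.0162). ATTTA, the core of AU-rich decay elements, was in 3.81%, against 9.80% (adjusted exact p = 1.46e-05) and 9.50% (adjusted exact p = 0.00123). TTTATTT, read by ELAVL-type proteins, was in 0 of 525 peaks, against 43 P15-only (adjusted exact p = 0.000472) and 9 overlapped peaks (adjusted exact p = 0.00266). The RBFOX element TGCATG was in 0.762%, against 2.93% (adjusted exact p = 0.00601) and 3.02% (adjusted exact p = 0.0162), and AAAAAA in 1.90%, against 5.19% (adjusted exact p = 0.00169) and 4.54% (adjusted exact p = 0.0467).

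Most of these calls were lost in low-GC peaks and in genes with peaks of both sets. In peaks with a GC content under 50% the 4 comparisons that passed were those of the Pumilio element and the hexamer AATAAA with both sets, so the 5 other motifs that were rarer over all peaks lost both of their calls there, with adjusted exact p from 0.053 to 0.893. The shares of ATTTA were then 10.5%, against 14.2% of P15-only (adjusted exact p = 0.397) and 12.7% of overlapped peaks (adjusted exact p = 0.818). Its gaps were smaller than over all peaks, as were those of AAAAAA. Those of the RBFOX element, the ELAVL-type sequence and the variant hexamer were wider. The RBFOX element was in 0%, against 2.98% and 3.34%, and the ELAVL-type sequence in 0%, against 3.12% and 3.01%. The variant hexamer was in 1.74%, against 5.74% and 4.68%. Only 172 P7-only peaks entered this setting, so a lost call does not show that a difference was absent. The setting also did not match composition inside the cut. In genes with peaks of both sets the same 5 motifs did not pass against overlapped peaks, and against P15-only peaks ATTTA (adjusted exact p = 0.00269) and AAAAAA (adjusted exact p = 0.0107) did. With 1 peak per gene the 5 motifs also did not pass against overlapped peaks (adjusted exact p from 0.0751 to 0.473), but all passed against P15-only peaks. With 50-nt windows at the peak centre ATTTA (0.162), ATTAAA (0.297) and AAAAAA (0.214) did not pass against overlapped peaks. All 5 passed against P15-only peaks there.

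Among the motifs richer in G, GGGG was in 137 of 525 (26.1%), against 16.0% of P15-only (adjusted exact p = 1.43e-06) and 21.6% of overlapped peaks (adjusted exact p = 0.167). Against their own flanks it was in 128 of 495 peaks, with 98 upstream and 93 downstream (adjusted exact p = 0.123). Within low-GC peaks its difference from P15-only peaks did not pass (9.88% and 6.25%, adjusted exact p = 0.191), nor in genes with peaks of both sets (25.8% and 22.1%, adjusted exact p = 0.508). GGACT was in 8.19%, against 4.95% (adjusted exact p = 0.0120) and 6.91% (adjusted exact p = 0.601). Its call was lost in the low-GC peaks (adjusted exact p = 0.208), in shared genes (adjusted exact p = 0.466) and with 50-nt windows at the peak centre (adjusted exact p = 0.0828). Over all peaks neither comparison passed for the QKI element ACTAAC in 3 peaks, the CELF element TGTTTG in 12 and the CA repeat CACACA in 9. The same held for the GU repeat GTGTGT in 18 and the sequence TGGAAT in 13. The constant bases of the 3' adapter open with TGGAAT, and this sequence followed the peak end by 0 to 5 nt in 15 of 522 peaks (2.87%, exact interval 1.62 to 4.70), 4.38% of overlapped and 1.91% of P15-only peaks. Of the 495 peaks with both flanks it was in 10, in 22 of the downstream and in 2 of the upstream windows, and 1.52% of the 50-nt windows along 3' UTRs held it. The downstream windows of overlapped and P15-only peaks held it in 6.65% and 3.33%, and the upstream windows in 1.48% and 1.34%. Its part in the placing of the peaks was not tested.

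No word of 6 nt passed. Of all possible words, 0 (0%) passed the exact McNemar test against both flanks with adjustment, and 30 had an unadjusted p under 0.05, of which 14 were more frequent in peaks. Among these, picked after their values were seen, TGTAAA was in 25 peaks against 7 and 9 flanks and GTAAAT in 18 against 3 and 4. Both are parts of the Pumilio element, and their adjusted p was 1.

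No family of loaded miRNAs passed either. Seed families, here miRNAs with the same bases 2 to 8, were taken where they averaged at least 1000 CPM (counts scaled to a common library total) at P7, which gave 52. Library totals were 13059 and 6828 counts at P7, and 169054 and 94132 in the P15 pair. Sequences were matched for 1679 of 1978 miRNAs, carrying 61.1% and 63.1% of the P7 counts. miR-124-3p, with 35.9% and 33.6% of P7 counts, was among those without one here, so its sites were not searched. The miR-9-5p family had 125201 and 105155 CPM in the P7 libraries and 114378 and 114424 at P15, and its match was in 4 of the 525 peaks. The family of miR-125b-5p had 85611 and 91242 CPM at P7 and a match in 5 peaks, and miR-138-5p 68459 and 79965 CPM and a match in 3. The miR-29 family had 50846 and 63562 CPM at P7, 154749 and 193473 at P15, and a match in 2 of 525 P7-only, 1 of 463 overlapped and 12 of 2082 P15-only peaks, too few to compare. The matched let-7 miRNAs had 11793 and 13474 CPM at P7 and a match in 2 peaks. For the miR-6240 family the P7 libraries differed, with 7811 and 29291 CPM from 102 and 200 counts. It had 1431 and 223 CPM at P15, and a match in 9 of the 525 peaks.

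Of the 52 families 0 (0%) were called against both flanks by the exact McNemar test with adjustment, and 1, miR-1983, had an unadjusted p under 0.05, with 8 peaks against 1 and 1 flanks. Matches of any of the 52 families were in 137 of 495 peaks (27.7%), with 117 upstream (23.6%) and 116 downstream (23.4%), which did not pass (p = 0.150, exact McNemar test, larger of both flanks). In P15-only peaks the shares were 21.9%, 22.8% and 22.3%, and in overlapped peaks 21.9%, 24.6% and 23.2%. The number of peaks, 495 with both flanks, limits what can be seen of a single family whose match is in a few peaks.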

How the data were processed

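The deposited files used were the P7 and P15 target peak lists, in which the authors give positions and strand only, the list deposited with P15 target replicate 2, and 4 tables of raw counts per mature miRNA as deposited. The build mm10 and, among other tools, STAR 2.5.2a, Bowtie2 2.4.2 and cutadapt 2.10 are named in the submitters' processing notes; the peak caller is not given in the sources used here. Input libraries were not analysed here. Peaks were placed on GENCODE M21 (3' UTR before coding exon, 5' UTR, other exon and intron), and sequence came from its transcripts, choosing 1 transcript per peak. Flanks were windows of the peak's length on both sides. Tests were two-sided, exact McNemar and Fisher's exact, with Benjamini-Hochberg adjustment at a threshold of 0.05, and intervals are exact binomial at 95%. Python 3.11.15, scipy 1.17.1 and numpy 2.4.6 were used. The flank test was also run on simulated data with a planted word, and the outcome is not reported here. CPM were computed from the deposited counts and library totals. Named genes were the 15 with most members, up to 4 per list, the 10 with most members among genes without other peaks, and the 3 peaks on each side of the overlap threshold; 10 Pumilio elements nearest to a peak centre and 1 site per miRNA family were printed. A few genes that the rule names are not reported here. The members, motifs and 20 gene lists were chosen with earlier results of these data known. The alternatives varied overlap, class priority, flanks, width, peaks per gene and families.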

Additional observations from a re-analysis of the deposited data

How the results depend on the processing

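The number of 541 peaks ranged from 457 (coding exons first) to 631 (at least 50% of the peak overlapped) but was 841 when the replicate 2 list replaced the main P15 list. Motifs called against flanks numbered 1, but 0 with flanks 50 nt away, 0 with 1 peak per gene, 0 with peaks wider than 30 nt and 2 with peaks extended by 20 nt. Of the motif comparisons with the other sets 16 passed, 6 in genes with peaks of both sets and 4 in peaks with GC under 50%. Of the position and composition comparisons 13 passed, and 6 in each of those settings. Both settings hold fewer peaks, and the second also removes the GC feature itself. Why fewer comparisons passed was not tested. Matches of all families together were 4.14 points above the mean of the flanks and -0.303 with the 10 most abundant families. The first 25% of the 3' UTR held 2.54 points more than in overlapped peaks, but -1.45 with coding exons first and -2.91 in genes with peaks of both sets, with no call in any of them. GGACT differed by -0.481 points from overlapped peaks in those genes, also without a call. The count of called words and families was 0 under every alternative run, including the families chosen without P7 replicate 1 and without P7 replicate 2. The share overlapping the replicate 2 list ran from 1.48% to 2.59%. No paired analysis was possible because each age has 1 main peak list for its libraries, a list named for a single replicate was used for P15 alone, and the miRNA counts are given without a test. Depth of the target libraries is unknown, so a peak missing from a list cannot be told apart from one not detected.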
